A study of Homo sapiens with 4 samples.

Results

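The 36 genes described here encode the sensors of double-stranded RNA and the interferon-stimulated genes, abbreviated ISGs, that lie downstream of them. They were given as a list of symbols, and 1 probe, the brightest, stood for each gene. Of the 36 genes, 35 had a probe that could be named, IFI27 was not analysed here, and 32 were detected on enough arrays to be tested, among 11275 tested genes in all. RNA was measured on 4 Illumina BeadChips in MDA-LM2 shDicer cells. MDA-LM2 is a lung-metastatic subline of MDA-MB-231, a human breast cancer line. All 4 samples, the controls included, carry a hairpin against Dicer. A pair of samples, siTARBP2-1 and siTARBP2-2, was transfected with different siRNAs against TARBP2. The other pair, siControl-1 and siControl-2, is labelled as control siRNA, although the design text speaks of mock transfection. RNA was taken 48 h after transfection. The labels give neither the siRNA sequences nor whether the line is a clone.

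Double-stranded RNA in the cytosol is bound by the helicases RIG-I (RIGI) and MDA5 (IFIH1), and in endosomes by TLR3. These receptors signal through adaptor proteins to kinases that activate IRF transcription factors, which switch on the gene for interferon beta and some ISGs directly. Secreted interferon acts through its receptor and JAK kinases on a complex that contains STAT2 and IRF9, which binds interferon-stimulated response elements in ISG promoters, and many ISG products block steps of viral replication. TARBP2 itself is a double-stranded RNA binding protein that partners Dicer.

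TARBP2 read 6.11 and 5.79 with siTARBP2-1 and siTARBP2-2, and 9.27 and 9.25 in the controls, as normalised log2 intensity, so the column headings fit the target gene. The series matrix carries the 2 groups crosswise to these headings, and under its labels every direction given here would turn. Between 39.1% and 40.8% of probes were detected on an array. With 4 arrays the precision is limited. No label states that separate cultures were used, so a p-value here reflects the spread between samples, which may be technical, and an exact permutation test of 2 arrays against 2 cannot go below 0.333. All 8 markers of mesenchymal breast cancer lines were detected, while the luminal markers ESR1, PGR, FOXA1 and CDH1 and the blood cell markers PTPRC and CD3E were not. The blood cell markers CD14, CD68, CD2 and ITGAM were detected on 2 or more arrays. The summed signal of the 9 luminal markers with a probe, 5 of them detected, was 3202.5 and 3110.6 in the knockdown and 2221 and 2331.4 in the controls, that of the mesenchymal markers was 74587 and 77126 against 68226 and 68083, and that of the 12 blood cell markers, 4 of them detected, was 5899.3 and 5164.7 against 5019.1 and 5485.8, which overlap. Among the 5 detected luminal markers, the keratins KRT19 (2.05-fold, limma adjusted p = 1.92e-07) and KRT8 (1.63-fold, 2.24e-06) rose. ERBB2 fell (1.20-fold lower, limma adjusted p = 0.00888), and GATA3 (0.161) and KRT18 (0.963) did not pass. Of the 8 mesenchymal markers, 5 rose and 0 fell, where 17% and 17.1% of all tested genes did. SPARC rose most of these (1.65-fold, limma adjusted p = 1.05e-05). All 8 lay above both controls on both knockdown arrays, as did 32.5% of all tested genes. The myeloid markers CD14, CD68 and ITGAM did not pass (limma adjusted p = 0.0698, 0.482 and 0.614), nor did the T cell marker CD2 (0.480). The part of these shifts in the results was not tested.

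The sequence that the complex with STAT2 and IRF9 binds has a core close to GAAA, any 2 bases, and GAAA again, and the promoters are shown to let a reader see it in the genes described. RefSeq promoters of GRCh38.p14, from 250 bases before to 50 after the start, were in the table for 28 of the 36 genes, and 18 of the 28 (64.3%) held this motif on either strand. Over all 27305 promoters of the table the share was 3.66%, and over the tested genes it was 2.91%. Of the 18, 11 held more than 1 copy, and IFIH1, IFI6 and HERC5 held 3. The copies began 116 and 103 bases before the start in IFIT1, 113 and 107 in ISG15, and 40 and 6 in IFITM1. Each window below holds the copy nearest to the start. In the windows, 5′ to 3′ along the gene's strand, capitals mark each copy that lies whole in the window, which reads as GAAA, 2 bases and GAAA or, when it lies on the other strand, as TTTC, 2 bases and TTTC. The first 6 belong to genes that rose in the knockdown, TLR3 fell, and SAMD9 and BST2 passed in neither direction.
IFIT1, chr10:89392510-89392539, plus strand: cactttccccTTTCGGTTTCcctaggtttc
IFITM1, chr11:314024-314053, plus strand: acacttctgaGAAACTGAAAcgacagggga
ISG15, chr1:1013380-1013409, plus strand: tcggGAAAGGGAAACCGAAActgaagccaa
IFIH1, chr2:162318686-162318715, minus strand: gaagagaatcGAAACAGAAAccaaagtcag
IFI44L, chr1:78620365-78620394, plus strand: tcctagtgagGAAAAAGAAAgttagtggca
CXCL10, chr4:76023699-76023728, minus strand: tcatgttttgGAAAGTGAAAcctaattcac
TLR3, chr4:186069142-186069171, plus strand: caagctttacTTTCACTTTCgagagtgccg
SAMD9, chr7:93118096-93118125, minus strand: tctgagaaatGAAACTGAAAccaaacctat
BST2, chr19:17405735-17405764, minus strand: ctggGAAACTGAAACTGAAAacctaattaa

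For IFIT3, the gene with the greatest rise among those with more than 1 copy, and HERC5, which did not pass and held 3, the 250 bases before the start are given in full. In IFIT3 it began 156 and 122 bases before the start, and in HERC5 125, 119 and 74 bases before it, where the first and second copies overlap.
IFIT3, chr10:89327747-89327996, plus strand: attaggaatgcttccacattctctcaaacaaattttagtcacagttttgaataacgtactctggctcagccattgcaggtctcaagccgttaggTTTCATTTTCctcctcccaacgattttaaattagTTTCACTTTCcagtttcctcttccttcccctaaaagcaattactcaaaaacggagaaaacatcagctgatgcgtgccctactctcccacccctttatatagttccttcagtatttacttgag
HERC5, chr4:88456869-88457118, plus strand: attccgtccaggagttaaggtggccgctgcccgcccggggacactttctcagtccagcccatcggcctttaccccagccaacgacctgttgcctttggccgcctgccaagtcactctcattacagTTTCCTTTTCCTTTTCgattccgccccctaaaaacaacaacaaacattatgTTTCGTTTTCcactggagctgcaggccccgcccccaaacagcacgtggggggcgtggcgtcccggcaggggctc

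Among the tested members with a promoter in the table, 10 of the 16 that rose held the motif (62.5%), as did 6 of the 8 that passed in neither direction (75%) and TLR3, which fell. Over all tested genes the shares were 3.44% of those that rose, 2.62% of those that fell and 2.85% of the others. OAS1, RIGI, STAT2, IRF1, IRF9, IFI35, IFNB1, CXCL11, RSAD2 and XAF1 held no match, which says only that these letters are not in this window.

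More of the tested sensor and interferon response genes rose than fell when TARBP2 was knocked down. The list was chosen with earlier results of these data known, so the shares beside all genes are no test of the list. Of the 32 tested, 21 passed the threshold in either direction, as did 34.1% of all genes. There were 20 that rose, against 17% of all tested genes, and TLR3 alone fell, against 17.1% of all tested genes, in limma's fit over all genes with Benjamini-Hochberg adjusted p under 0.05. The other 11 passed in neither direction. The median log2 fold change of the 32 was 0.28, with quartiles of 0.12 and 0.45, against a median of −0.01 and quartiles of −0.16 and 0.15 over all tested genes. Changes were small: among genes that rose, the fold ran from 1.14 in STAT2 to 1.82 in OAS2. On the arrays, 24 of the 32 were higher in both knockdown samples than in both controls (32.5% of all genes were), 3 were lower in both (34.5%), and 5 overlapped. In a bulk sample, a change in the number of cells that express a gene and a change in RNA per cell cannot be told apart.

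**Figure D1:**
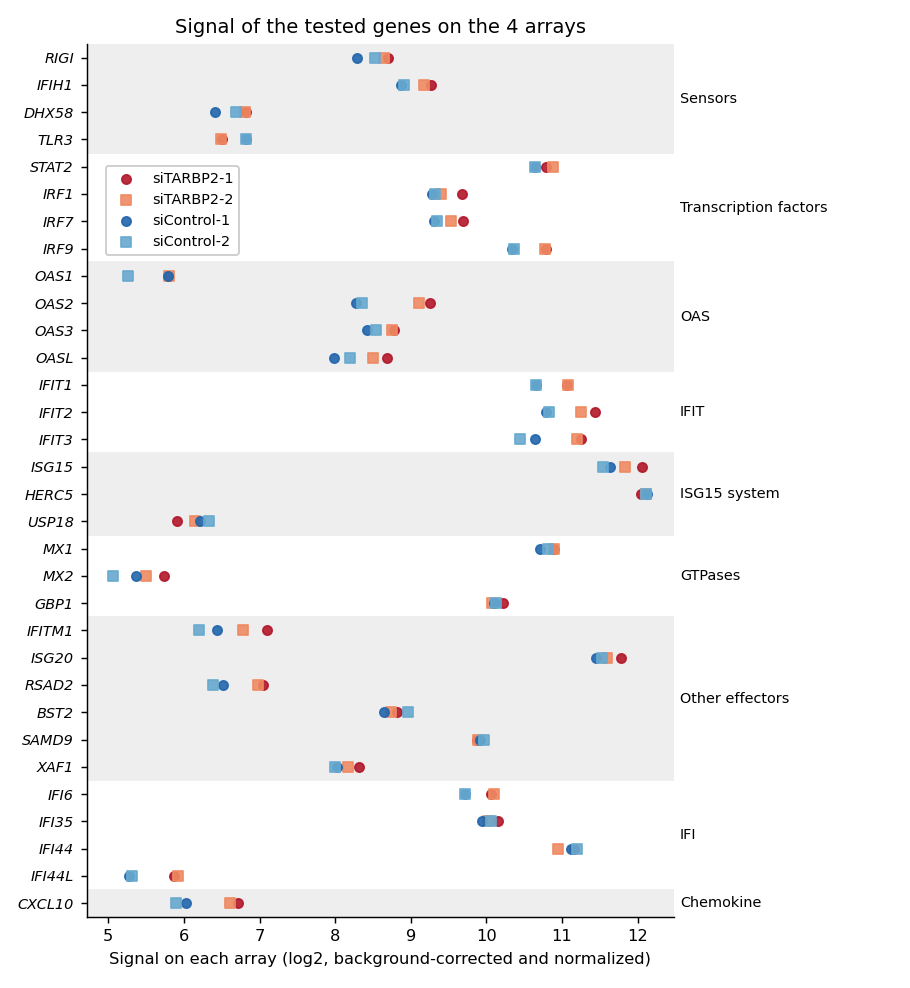
Background-corrected and normalised log2 signal (horizontal axis) of the 32 tested genes (1 line each, ordered by role) on the 4 arrays, with circles and squares for the first and second sample of a group, red and orange for the knockdown and blue for the controls. The knockdown points lie above the control points for 24 genes, below them for TLR3, USP18 and SAMD9, and among them for 5.

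Under median scaling in place of quantile normalization, 66.2% of the genes called over the whole table were higher, against 49.9%. All 20 genes of the list that rose still did so with that scaling, whereas TLR3 did not pass. Without the detection filter RIGI, IRF1, ISG20, XAF1 and TLR3 were lost (limma adjusted p of 0.0761 to 0.160), and without the variance trend RIGI, STAT2, IRF1, IRF7, ISG20 and XAF1 (0.05095 to 0.1655). Without 1 array at a time, 12 to 17 members rose: 12 without siTARBP2-1, 13 without siControl-1, and 17 without siTARBP2-2 or without siControl-2. IFIH1, IRF9, OAS2, OASL, IFIT1, IFIT2, IFIT3, ISG15, RSAD2, IFI6 and CXCL10 passed in all 15 alternative settings.

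**Figure D2:**
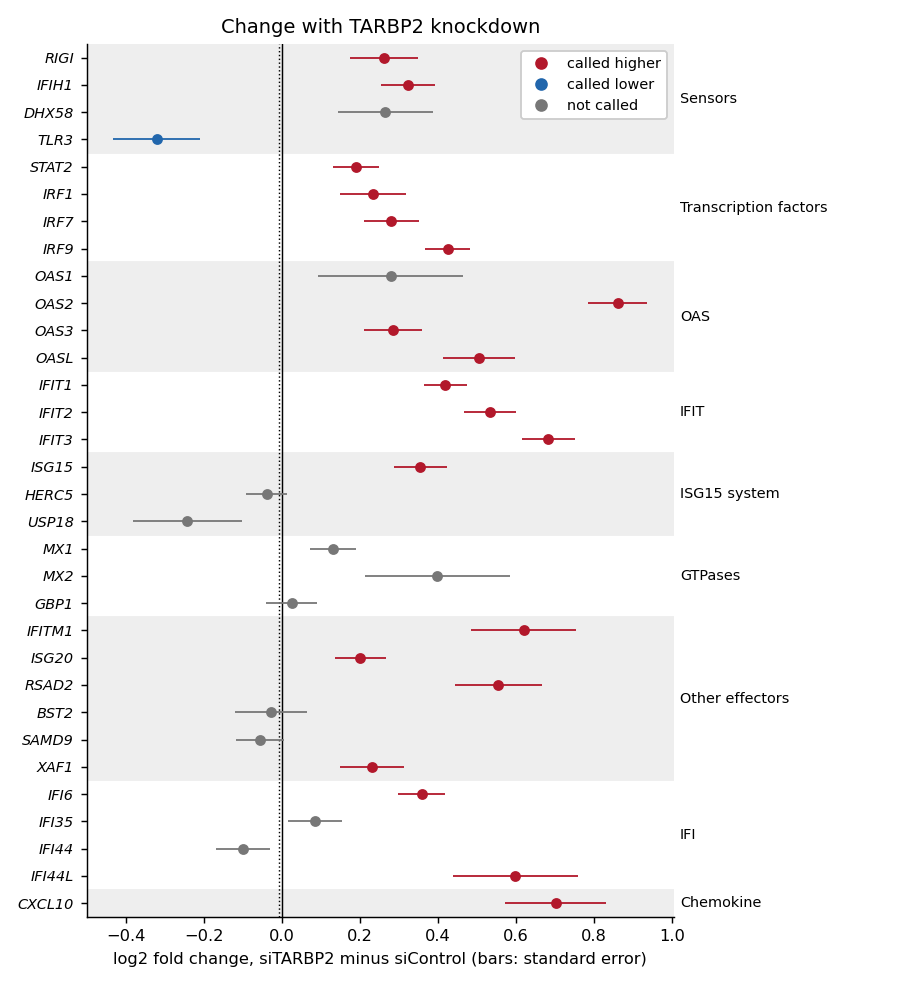
Log2 fold change of knockdown over control (horizontal axis) for the 32 tested genes, with bars of 1 standard error from limma, red points for genes called higher, blue for those called lower and grey for the others at an adjusted p threshold of 0.05. The dotted line is the median of all tested genes. OAS2, at 0.86, lies farthest to the right, and TLR3, at −0.32, is the blue point.

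Among the 4 sensors, IFIH1, the MDA5 helicase that binds long double-stranded RNA, read 9.26 with siTARBP2-1 and 9.17 with siTARBP2-2, and 8.88 and 8.91 in the controls. Both knockdown values lay above both controls, by 1.25-fold (log2 fold change 0.32, SE 0.07, limma adjusted p = 0.00287). RIGI, the helicase that binds short double-stranded RNA with a 5′ triphosphate, read 8.70 and 8.64 against 8.28 and 8.53. It also lay higher in both knockdown samples, by 1.20-fold (limma adjusted p = 0.0322), but the controls were far apart. DHX58, the LGP2 helicase that regulates the other helicases, read 6.83 and 6.80 against 6.41 and 6.69 and did not pass (limma adjusted p = 0.111).

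TLR3, the endosomal receptor for double-stranded RNA, was the sensor that fell. Its probe read 6.51 and 6.50 in the knockdown and 6.82 on both control arrays, with means of 6.50 ± 0.01 and 6.82 ± 0.00 (SD, n = 2 each). The groups did not overlap, and the level was 1.25-fold lower in the knockdown (SE 0.11 on the log2 scale, limma adjusted p = 0.0378). A further TLR3 probe had a log2 fold change of −0.50 and passed in a fit over all detected probes (limma adjusted p = 0.0099). The RIGI call was lost without siTARBP2-1 (limma adjusted p = 0.149), siTARBP2-2 (0.0857) or siControl-1 (0.312), and the TLR3 call without any 1 of the 4 arrays (0.114 to 0.130) or under median scaling (0.139), and on the series matrix values the TLR3 log2 fold change was −0.21. DHX58 passed under median scaling (limma adjusted p = 0.0440).

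All 4 transcription factors of the list rose. IRF9, the DNA-binding part of its complex with STAT2, read 10.79 and 10.77 in the knockdown and 10.34 and 10.37 in the controls. The knockdown mean of 10.78 ± 0.01 stood above the control mean of 10.36 ± 0.02 (SD, n = 2 each), a 1.34-fold rise (SE 0.06 on the log2 scale, limma adjusted p = 8.81e-05). STAT2, its partner, read 10.79 and 10.88 against 10.64 and 10.65 (log2 fold change 0.19, limma adjusted p = 0.0239). The groups were apart for both genes, with a smaller step in STAT2.

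IRF7, which drives the later wave of type I interferon genes, read 9.69 and 9.53 in the knockdown and 9.31 and 9.34 in the controls (log2 fold change 0.28, limma adjusted p = 0.00761). IRF1, a factor induced by interferon gamma, read 9.68 and 9.39 against 9.28 and 9.33 (log2 fold change 0.23, limma adjusted p = 0.0480). In both, siTARBP2-1 gave the highest value, and in IRF1 siTARBP2-2 lay close to the controls. Without siTARBP2-1 neither passed (limma adjusted p = 0.428 for IRF1 and 0.0763 for IRF7), nor without siControl-1 (0.190 and 0.0551), and IRF1 was also lost without siControl-2 (0.107). STAT2 did not pass without siTARBP2-2 (limma adjusted p = 0.135), siControl-1 (0.103) or siControl-2 (0.0982).

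The OAS proteins bind double-stranded RNA, and the catalytic ones make short oligoadenylates that act as a second messenger. OAS2 had the greatest fold change of the list. It read 9.25 with siTARBP2-1 and 9.10 with siTARBP2-2, and 8.27 and 8.36 in the controls, with means of 9.18 ± 0.10 and 8.32 ± 0.06 (SD, n = 2 each). The 4 values fell into well separated pairs, 1.82-fold apart (log2 fold change 0.86, SE 0.08, limma adjusted p = 2.65e-06).

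OASL, a member without synthetase activity in humans that enhances RIG-I signalling, read 8.69 and 8.50 against 7.98 and 8.20. It rose 1.42-fold (log2 fold change 0.51, SE 0.09, limma adjusted p = 9.44e-04), with a spread of about the same size in both groups. OAS3, the largest of the synthetases, read 8.77 and 8.75 against 8.42 and 8.54 (log2 fold change 0.28, limma adjusted p = 0.00979). Its knockdown values lay close together above both controls. Its call was lost without siTARBP2-1 (limma adjusted p = 0.0539) or siControl-1 (0.0957). OAS1 read 5.79 and 5.81 against 5.79 and 5.25, was not detected on the siControl-2 array, and did not pass (limma adjusted p = 0.274).

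The IFIT proteins recognise the 5′ ends of foreign RNA, and all 3 of the list rose. IFIT3, which stabilises IFIT1 in their complex, read 11.25 and 11.21 in the knockdown and 10.64 and 10.44 in the controls, with means of 11.23 ± 0.03 and 10.54 ± 0.14 (SD, n = 2 each). The groups did not overlap, at 1.61-fold (log2 fold change 0.68, SE 0.07, limma adjusted p = 6.05e-06). IFIT2 read 11.44 and 11.25 against 10.79 and 10.83, a 1.45-fold rise (log2 fold change 0.53, SE 0.07, limma adjusted p = 4.07e-05). IFIT1, which binds RNA caps that lack 2′-O methylation, read 11.07 and 11.08 against 10.66 and 10.65. It was the most even of the 3 within each group, and rose 1.34-fold (log2 fold change 0.42, SE 0.06, limma adjusted p = 7.6e-05).

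In the ISG15 system, the modifier rose and the enzymes did not pass. ISG15, a ubiquitin-like protein that is attached to newly made proteins, read 12.06 and 11.84 in the knockdown and 11.64 and 11.55 in the controls. Both knockdown values lay above both controls, by 1.28-fold (log2 fold change 0.35, SE 0.07, limma adjusted p = 0.00139). HERC5, the main ligase for ISG15 in human cells, read 12.04 and 12.11 against 12.13 and 12.11, with overlapping groups (limma adjusted p = 0.594). USP18, the protease that removes ISG15, read 5.91 and 6.15 against 6.22 and 6.33, below both controls, and missed the threshold (log2 fold change −0.24, limma adjusted p = 0.201).

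None of the 3 interferon-induced GTPases passed. MX1, a dynamin-like protein that blocks influenza and other viruses, read 10.89 on both knockdown arrays and 10.71 and 10.81 in the controls (log2 fold change 0.13, limma adjusted p = 0.106). MX2, which restricts HIV, read 5.73 and 5.50 against 5.37 and 5.07, was not detected on the siControl-2 array, and had a log2 fold change of 0.40 with an SE of 0.19 (limma adjusted p = 0.115). MX1 and MX2 thus lay above both controls on both knockdown arrays without passing. GBP1, a guanylate-binding protein of the interferon gamma response, overlapped between groups at 10.22 and 10.07 against 10.11 and 10.13 (limma adjusted p = 0.814).

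Of the other antiviral effectors, 4 of the 6 tested rose. IFITM1, a membrane protein that hinders viral entry, read 7.10 and 6.79 in the knockdown and 6.44 and 6.21 in the controls. The groups were apart, although each spanned more than 0.2 on the log2 scale, and the rise was 1.54-fold (log2 fold change 0.62, SE 0.14, limma adjusted p = 0.0031). RSAD2, the viperin enzyme that makes a chain-terminating nucleotide, read 7.04 and 6.98 against 6.52 and 6.39. It rose 1.47-fold with a smaller spread (log2 fold change 0.55, SE 0.11, limma adjusted p = 0.00189). ISG20, an RNA exonuclease, had a log2 fold change of 0.20 (limma adjusted p = 0.0288).

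XAF1, a pro-apoptotic antagonist of XIAP, had a log2 fold change of 0.23 (limma adjusted p = 0.0427). BST2, or tetherin, which holds budding virions on the cell, overlapped between groups at 8.81 and 8.74 against 8.65 and 8.96. SAMD9, which restricts poxviruses, read 9.88 and 9.89 against 9.92 and 9.97 and did not pass (limma adjusted p = 0.522). TRIM22, an antiviral ubiquitin ligase, was detected on none of the 4 arrays, with detection p-values of 0.135 or more. Without siTARBP2-1, IFITM1 (limma adjusted p = 0.0607), ISG20 (0.228) and XAF1 (0.267) were lost, and without siControl-1 ISG20 (0.196) and XAF1 (0.111). On the series matrix values the log2 fold change was 0.41 for IFITM1 and 0.37 for RSAD2. XAF1 also did not pass without siControl-2 (limma adjusted p = 0.157) or with the mean of its probes (0.320), the setting in which IRF1 was lost too (0.0518).

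Among the 4 tested IFI genes, IFI6 and IFI44L rose. IFI6, a membrane protein of the endoplasmic reticulum that hinders flavivirus replication, read 10.06 and 10.10 in the knockdown and 9.72 and 9.71 in the controls. Its pairs were tight and apart, by 1.28-fold (log2 fold change 0.36, SE 0.06, limma adjusted p = 5.81e-04). IFI44L read 5.86 and 5.92 against 5.27 and 5.32, a 1.51-fold rise with no overlap (log2 fold change 0.60, SE 0.16, limma adjusted p = 0.0111). IFI44L was lost without siTARBP2-1 (limma adjusted p = 0.0552) or siTARBP2-2 (0.0875). Its log2 fold change was 0.35 with an offset of 50, 0.32 without background correction and 0.30 on the series matrix values, and it passed in all 3.

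IFI44, a relative of IFI44L, read 11.16 and 10.95 in the knockdown and 11.11 and 11.19 in the controls, which overlap (log2 fold change −0.10, limma adjusted p = 0.284). It passed as lower when siTARBP2-1 was left out (log2 fold change −0.21, limma adjusted p = 0.0411). IFI35, which binds NMI, overlapped too, at 10.16 and 10.02 against 9.95 and 10.07 (limma adjusted p = 0.374).

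Of the secreted products, CXCL10, a chemokine that draws T cells through CXCR3, was the one detected. It read 6.72 and 6.61 in the knockdown and 6.03 and 5.89 in the controls, with means of 6.66 ± 0.08 and 5.96 ± 0.09 (SD, n = 2 each). The groups were apart by 1.63-fold (log2 fold change 0.70, SE 0.13, limma adjusted p = 9.64e-04), with a log2 fold change of 0.45 without background correction and 0.43 on the series matrix values. IFNB1, interferon beta itself, had raw intensities of 44.0 and 51.2 in the knockdown and 51.6 and 53.7 in the controls, with detection p-values of 0.784 to 0.995, so it was not above background on any array. CXCL11, a further CXCR3 ligand, was undetected with both of its probes, which read 4.39 to 4.69 on the log2 scale.

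The siRNAs were then set against the controls separately, in a limma fit with 3 groups which gives each single siRNA array the spread of the control pair. Both comparisons use the same 2 control arrays. Counts under other settings stand without the share of all genes under those settings. A drop in them may therefore not be particular to these genes. With siTARBP2-1, 17 of the 32 genes rose (12.5% of all genes did) and 0 fell (12.3%), and without the variance trend 4 rose. With siTARBP2-2, 15 rose (13.6%) and 1, IFI44, fell (13.6%), and 8 rose without the detection filter and 3 without the trend. In all 13 rose with each siRNA (9.85% of all genes did), 4 with siTARBP2-1 and not siTARBP2-2, and 2 the other way round.

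OAS2 had a log2 fold change of 0.93 with siTARBP2-1 (limma adjusted p = 3.53e-05) and 0.79 with siTARBP2-2 (1.16e-04). CXCL10 had 0.76 and 0.65 (limma adjusted p = 0.00676 and 0.0146), and IRF9 0.43 and 0.42 (8.67e-04 and 0.00102). These 3 rose on the array of either siRNA. IRF1 had 0.38 with siTARBP2-1 (limma adjusted p = 0.00504) and 0.09 with siTARBP2-2 (0.433), and STAT2 had 0.14 (0.136) and 0.24 (0.0193). Neither difference between siRNAs passed.

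The difference between the siRNAs was also tested directly. None of the 32 genes passed in limma's fit (0.0177% of all genes did), with a smallest adjusted p of 0.802, and 5 had an unadjusted p under 0.05. The array with siTARBP2-1 was the higher of the pair for 23 of the 32, and the share over all genes was not counted.

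**Figure D3:**
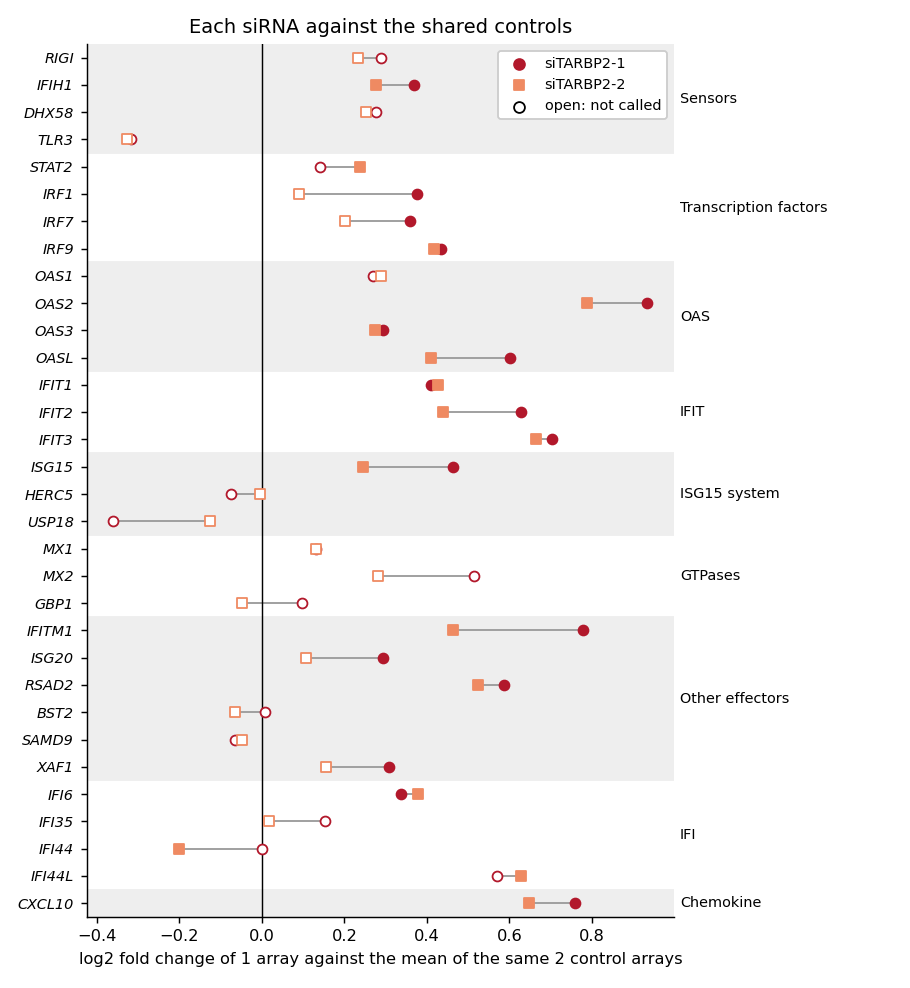
Log2 fold change of siTARBP2-1 (circles) and siTARBP2-2 (squares) against the mean of the same 2 control arrays for the 32 tested genes, with a line joining the pair and filled symbols for an adjusted p under 0.05. OAS2 stands farthest to the right, at 0.93 and 0.79, and 29 genes have the same sign with both siRNAs. The shared controls by themselves favour a like sign, and the share over all genes was not counted.

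A wider list of 80 genes of the same pathway, written with earlier results of these data known, held 65 that were tested. Of these, 19 rose and 9 fell, where 17% and 17.1% of all tested genes did, so the falls were near the share over all genes. Their median log2 fold change was 0.11. The 36 tested further ISGs held most of the rises: 14 rose and 3 fell, with a median of 0.17. EPSTI1, an epithelial and stromal ISG, read 8.40 and 8.28 in the knockdown and 7.39 and 7.45 in the controls, 1.89-fold higher (limma adjusted p = 3.4e-06). CCL5, a T cell chemokine, rose by 0.72 (limma adjusted p = 2.73e-05) and PHF11, a zinc finger protein, by 0.51 (7.6e-05), both as log2 fold changes. NMI, the partner of IFI35, fell by 0.34 (limma adjusted p = 0.00108), GBP2 by 0.20 (0.0296) and SP110 by 0.22 (0.0438).

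Of the 15 tested genes of the sensing and signalling steps, 4 rose and 3 fell, with a median log2 fold change of 0.00. TBK1, the kinase that phosphorylates IRF3, read 10.36 and 10.32 in the knockdown and 11.02 and 10.96 in the controls. It was 1.57-fold lower, with no overlap (limma adjusted p = 2.78e-06). IKBKE, the related kinase, read 9.36 and 9.21 against 8.81 and 8.74 and was 1.42-fold higher (limma adjusted p = 1.5e-04), so the paired kinases moved in opposite directions. TICAM1, the TLR3 adaptor, rose by 0.47 (limma adjusted p = 0.00103) and TRIM25, a ligase that acts on RIG-I signalling, by 0.37 (0.00201).

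CGAS, the DNA sensor, fell by 0.28 on the log2 scale (limma adjusted p = 0.0190). CGAS did not pass without siTARBP2-2 (limma adjusted p = 0.153) or siControl-1 (0.148).

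**Figure D4:**
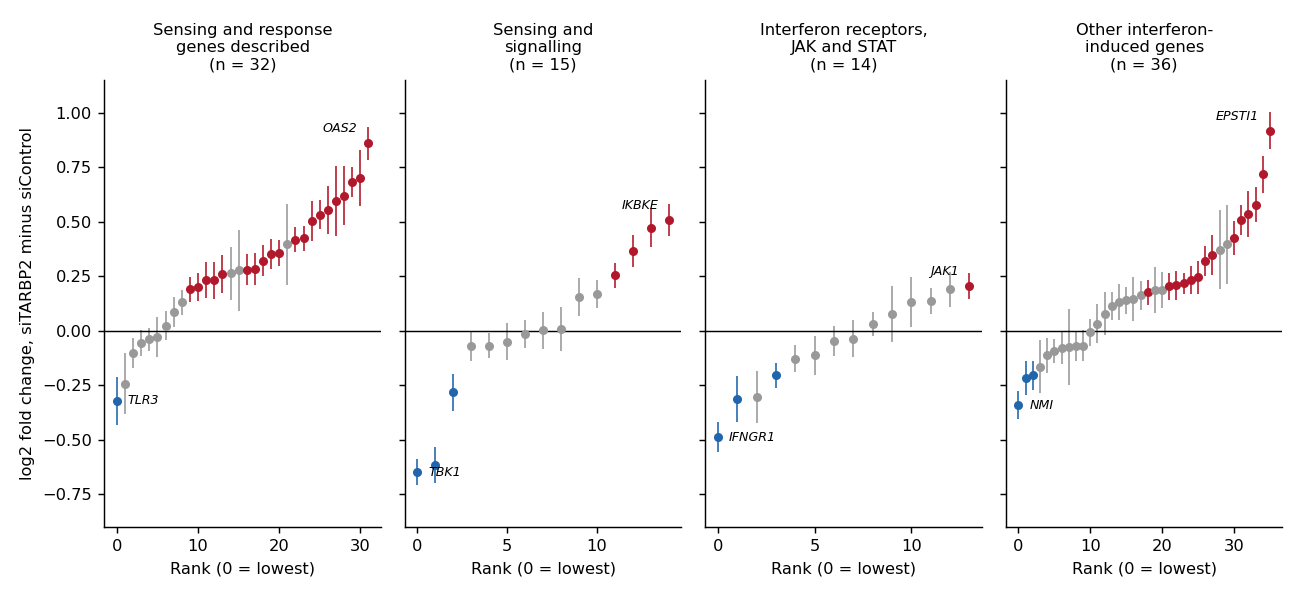
Log2 fold change of knockdown over control (vertical axis) for the 32 genes described and for the tested genes of the 3 wider pathway lists, each ranked from lowest to highest, with bars of 1 standard error and red, blue and grey for genes called higher, lower and in neither direction. EPSTI1, at 0.92, is the highest point and TBK1, at −0.65, the lowest.

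Of the 14 tested genes of the interferon receptors and their signalling, 1 rose and 3 fell, with a median log2 fold change of −0.04. IFNGR1, a chain of the interferon gamma receptor, read 9.91 and 9.76 against 10.31 and 10.34, 1.40-fold lower with no overlap (limma adjusted p = 1.04e-04). The kinase JAK1 rose by 0.21 (limma adjusted p = 0.0147) and JAK2 fell by 0.31 (0.0345). JAK2 and SP110 did not pass without any 1 of the 4 arrays (limma adjusted p of 0.0674 to 0.1715 and 0.0506 to 0.239), and JAK1 and GBP2 without siControl-1, siControl-2 or siTARBP2-2 (0.0515 to 0.0967 and 0.0830 to 0.155). Median scaling ended the calls of JAK2 (limma adjusted p = 0.125), GBP2 (0.227), SP110 (0.228) and CGAS (0.0857), and the fit without a variance trend those of JAK1 (0.0626), GBP2 (0.0700), SP110 (0.0858) and CGAS (0.06315). With no detection filter JAK2 (limma adjusted p = 0.154), SP110 (0.103) and CGAS (0.0648) were lost, and with the mean of probes SP110 (0.139).

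In the authors' deposited table, which gives 1 log fold change per accession and marks accessions as up-regulated, 13 of the 35 genes had an accession so marked, against 5.19% of the 19167 named genes. The marked ones were IFIH1, IRF7, IRF9, OAS2, OASL, IFIT1, IFIT2, IFIT3, ISG15, IFITM1, RSAD2, IFI6 and CXCL10. Of the 19167 named genes, 11275 were detected on enough arrays to be tested, against 32 of the 35, so the shares rest on unlike sets. The authors' deposited table is built from the same arrays, so it is no independent evidence.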

How the data were processed

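Signal intensity on a linear scale and a detection p-value were deposited for 47323 probes on each array before normalization, per the file headers. The authors also deposited the series matrix, which holds intensity values, and a table of log fold changes with a mark for up-regulated accessions, whose log base is not stated, so these deposited log2 or other log values were used only to join and to describe. The submitters' processing notes name lumi, version not given in the sources used here.

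No probe annotation was used here. Probes were joined to accessions by value, within 1e-09, which joined 39320 of 39747 accessions, and named through the RefSeq gene table. The neqc function (limma 3.58.1, R 4.3.3, offset 16) corrected background and applied quantile normalization. Genes detected (p under 0.01) on 2 or more arrays entered lmFit, then eBayes with a variance trend. Tests were two-sided, adjusted over 11275 genes by Benjamini-Hochberg, with a threshold of 0.05. The steps were tested on simulated data. The members and the lists were chosen with earlier results of these data known. Values on every array and full statistics were to be given for members past the threshold with a log2 fold change of at least 0.3 in size and for members with undetected arrays, and the 3 smallest p in each direction of each pathway list were named, except that a few genes meeting this rule are left out of the text. Alternatives changed the offset, background, normalization, table, filter, probe rule, variance model, replicate block and arrays. Same-numbered samples deviated from their group means with a correlation of 0.00559. With 2 arrays per group this cannot show whether the numbers pair the samples, and the main fit did not pair them.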

Additional observations from a re-analysis of the deposited data

Results flagged for a closer look

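In 11 members there were further detected probes that the comparison did not use, and 7 of these probes passed as higher in a limma fit over all 19295 detected probes, of which 14.1% did. The log2 fold change was 0.379 for a probe of IRF7 (limma adjusted p = 0.00412), 0.509 for one of OAS2 (3.39e-04), 0.555 for one of OAS3 (0.0140), 0.585 for one of IFIT3 (2.49e-04) and 0.567 for one of IFI6 (0.0133). A probe of OAS1 and another of OAS2 were not above background on either control array, so that their folds are bounds. The knockdown was at least 1.22-fold higher for OAS1 and at least 1.46-fold higher for OAS2. Both probes are among the 7, but they entered the fit only through the knockdown arrays, where they are high. Their limma adjusted p (0.00849 for OAS1 and 0.00782 for OAS2) rests on undetected control values and does not test the bounds. The OAS1 probe used in the comparison did not pass (limma adjusted p = 0.274), nor did a further one (0.553), and the difference between these probes was not tested. Further probes of IFIT3 (limma adjusted p = 0.0554), OAS2 (0.106), OASL (0.237), IFIT1 (0.254), GBP1 (0.667) and XAF1 (0.855) did not pass either, and 1 of TLR3 passed as lower. In all, 15 of 15 further probes had the sign of the probe used.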

How the results depend on the processing

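Of the 21 called members, 11 kept their call and direction in all 15 alternatives and 10 lost it in at least 1; no fold change of a called member reversed, and the causes were not tested. The count of members that fell, 1, became 0 with median scaling, with no detection filter, and without siTARBP2-2, siControl-1 or siControl-2. Median scaling left 1145 genes lower of 11275, and 4 lower pathway genes. For each siRNA alone, the shares of all genes under these settings are not given, so a drop may not be particular to the members. Members that rose with siTARBP2-1 numbered 4 without the variance trend. With siTARBP2-2, 3 rose without the trend and 8 without the detection filter, and 0 fell with median scaling, with no filter or without the trend. Leaving out 1 array at a time left 1341 to 1468 genes higher and 1232 to 1532 lower, 12 to 17 members higher and 0 to 1 lower, and 12 to 17 pathway genes higher and 4 to 7 lower. With the replicate number as a block, 1924 genes were higher and 1951 lower, with 20 and 1 members and 19 and 9 pathway genes, the same counts as without it for the last 4. Genes near background, such as OAS1, MX2, IFI44L and CXCL10, rest on signals little above it, which limits their precision.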
